A study of Macaca mulatta with 28 samples.

Results

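Axon guidance ligands and receptors are the secreted or membrane-bound cues that steer growing axons and the receptors that read them. They were taken here as every listed transcript whose gene symbol names a semaphorin of classes 3 to 7, a plexin, a neuropilin, a slit, a ROBO receptor, a netrin or netrin-G, an UNC5 receptor or DCC, an ephrin or an Eph receptor, and which reached 5 counts in 3 or more animals. Of 70 symbols that match these names 62 passed, among 13769 transcripts that passed of 16885 listed with a symbol. The 62 members are 31 ligands and 31 receptors: 6 class 3 semaphorins, 12 semaphorins of classes 4 to 7, 9 plexins, 1 neuropilin, 3 slits, 4 ROBO receptors, 2 netrins, 2 netrin-Gs, 5 netrin receptors, 6 ephrins and 12 Eph receptors.

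Tissue punches of the VTA (ventral tegmental area), where mesolimbic dopamine neurons have their cell bodies, gave 1 RNA library for each of 28 male rhesus macaques. The 17 drinkers had been brought to drink by schedule-induced polydipsia, then had 12 months of open access to 4% ethanol for 22 h a day, and later 1-month abstinence periods with 3 months of renewed access between them, and were sampled at the end of the last abstinence of 30 days. The 11 controls were calorically yoked or housing controls and did not drink alcohol. The labels class the drinkers as very heavy (9), heavy (5), binge (2) or low (1), and the study's source data place 8 drinkers and 8 controls in cohort 1 and 9 drinkers and 3 controls in cohort 2, so that group and cohort are unevenly crossed. Drinkers and controls are numbered here across both cohorts in the order of their records.

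Semaphorins signal through plexins, with neuropilins as the binding partner that most secreted class 3 semaphorins need, and the usual outcome is collapse of the growth cone. Slits repel axons through ROBO receptors and are known for keeping fibres from crossing the midline, while netrin-1 attracts axons through DCC and repels them through UNC5 receptors. Ephrins are held on the cell surface and signal to Eph receptor tyrosine kinases on the cell they touch, and back into their own cell. In the ventral midbrain netrin-1 with DCC, slits with ROBO1 and ROBO2, and semaphorins with neuropilins and plexins guide dopamine axons to the forebrain during development, and in the adult brain many of the same genes are used by oligodendrocytes, astrocytes and blood vessels. Bulk tissue mixes all of these, so fewer cells of a type and less RNA per cell cannot be told apart.

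Totals per animal ranged from 12303914 to 27338669 estimated counts. Mitochondrial transcripts took 36.4% to 60.6% of them and the 62 members 0.134% to 0.267%. The dopamine neuron markers TH and SLC6A3 were above 0 in all 28 animals, at 5.58 to 826 and 6.35 to 833 CPM (counts scaled to library size, with TMM factors). Among markers of other cell types, the astrocyte gene GFAP stood at 0.106 to 44.1 CPM, and of 3 serotonin neuron markers only TPH2 passed the count filter, at 0 in 4 animals. Every gene is 1 listed Ensembl transcript, so a gene listed at 0 may be counted under another transcript. RAC1 and DPYSL2, effectors that neurons and glia use widely, did not pass the count filter.

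PLXNB1 and UNC5B, receptors for a semaphorin and for netrins, were the most abundant members. Per kilobase of RefSeq mRNA, PLXNB1, the receptor for SEMA4D, had the highest level at a median of 64.5 CPM per kilobase and a range of 43.1 to 80.6 over the 28 animals. UNC5B, a netrin receptor also known from blood vessels, followed at a median of 39.6 and a range of 27 to 51.0, and SEMA7A, a membrane-anchored semaphorin, at 35.4 and 29.7 to 68.1. The ranges of PLXNB1, UNC5B and SEMA7A overlap one another, so this order of medians need not hold within each animal. SEMA4C was next at 28.2 CPM per kilobase, then PLXNB3 at 22.3, SEMA6B at 13.7, PLXNB2 at 13 and EFNB3 at 12.3, each with a range that overlapped that of its neighbour. Lengths are medians over the RefSeq models of each gene and not those of the listed transcripts, so the levels per kilobase are approximate.

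The families differed widely within themselves. The 12 semaphorins of classes 4 to 7 ran from a median of 0.0834 CPM per kilobase for SEMA5A to SEMA7A's, and the 9 plexins from 1.68 for PLXNA4 to PLXNB1's. The class 3 semaphorins, which act mainly at a distance, lay between 0.544 for SEMA3D and 4.41 for SEMA3C. Among the slits SLIT1 had the highest median (7.18), followed by SLIT2 (1.91) and SLIT3 (0.861), and among their receptors ROBO4, which is known from endothelium, stood at 5.95, ROBO1 at 4.18 and ROBO2 at 0.457. The netrin receptor DCC had a median of 0.974 CPM per kilobase. NTN1, its attractant ligand, and EPHB4, EFNA1 and EPHA3 had medians of 0.

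**Figure D1:**
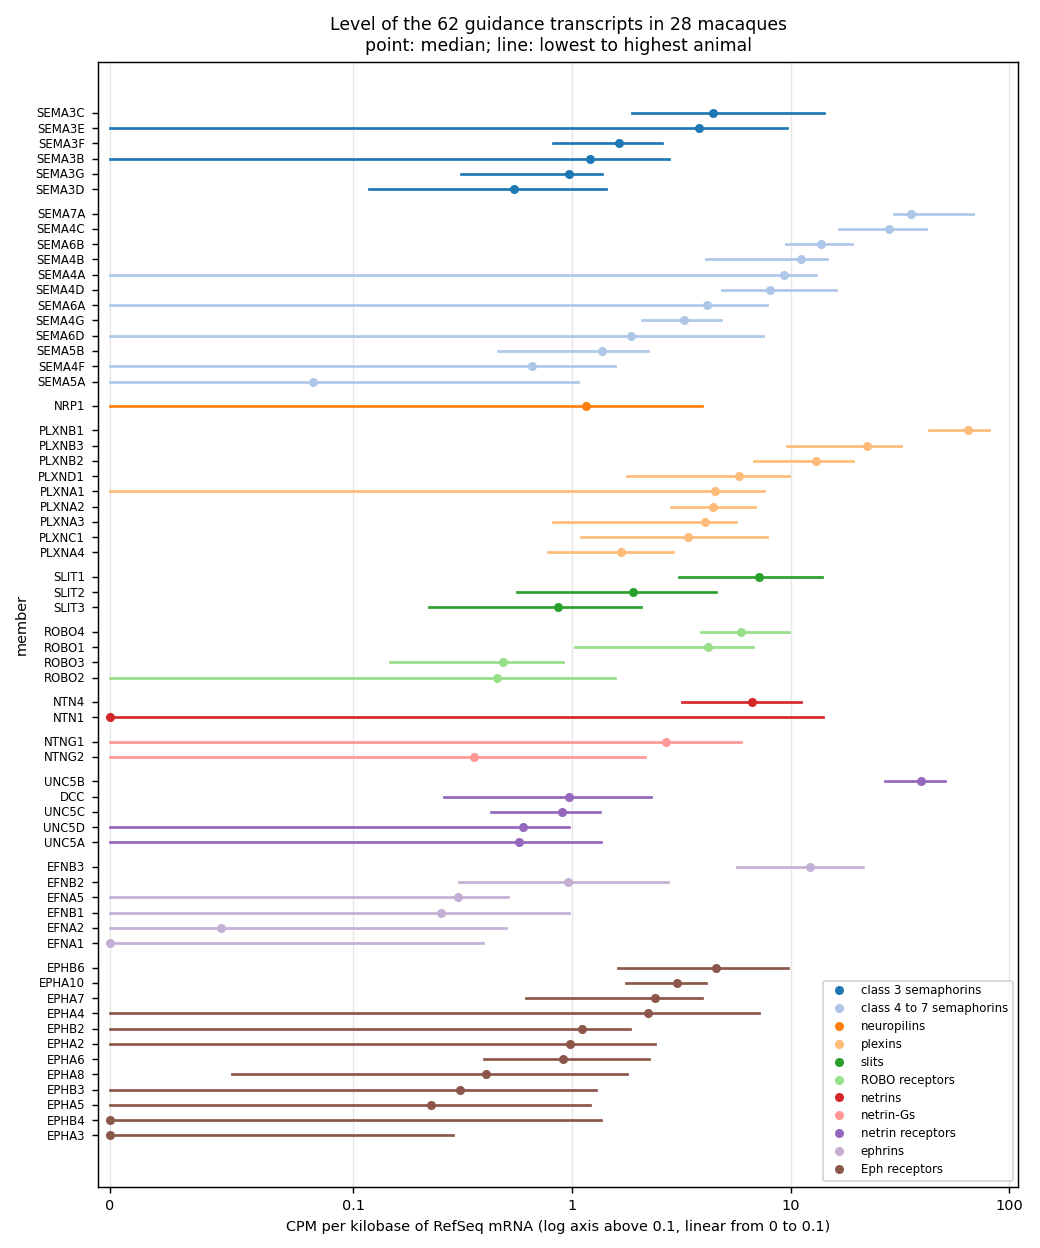
Level of each of the 62 members, as CPM per kilobase of RefSeq mRNA, on a log axis above 0.1 and a linear one from 0 to 0.1; points are medians and lines run from the lowest to the highest of 28 animals, coloured by family. PLXNB1, UNC5B and SEMA7A lie at the upper end, and many lines reach 0.

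Several canonical guidance genes were listed at 0 in some or all animals. Of the 8 symbols that did not pass the filter, SEMA3A, the founding repellent semaphorin, and EPHB1 were at 0 in all 28 animals, and the neuropilin NRP2 reached at most 5 counts. EFNA3, EPHA1, NTN3, NTN5 and SEMA6C were the other 5. Of the 62 members 26 (41.9%) were at 0 in at least 1 animal, against 39.5% of all 13769 transcripts. For 21 members (33.9%) the count was 0 in at least 1 animal and 100 or more in another, against 16% of all transcripts.

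NTN1 was at 0 in 15 of 28 animals and between 95 and 624 counts in the other 13. It was above 0 in 5 of 8 controls and 4 of 8 drinkers of cohort 1, and in 1 of 3 controls and 3 of 9 drinkers of cohort 2, so its zeros lay in every group. SEMA6D was at 0 in 7 animals and reached 1000 counts, SEMA5A was at 0 in 10 and reached 281, and ROBO2 was at 0 in 4 and reached 332. PLXNA1 was at 0 in drinker 5 alone and between 38 and 1766 counts elsewhere. EPHB4, the receptor of venous endothelium, was at 0 in all 8 cohort 1 drinkers and in 4 of 8 cohort 1 controls, where the others held 47 to 125 counts, and in cohort 2 it was above 0 in 2 of 9 drinkers and 2 of 3 controls. EPHB4 is therefore given below by counts and not by fold. A fitted log2 value of another member of this kind depends on the zeros it rests on, and family medians include these members.

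The 4 animals with the most members at 0 were drinkers 8 to 11, all of cohort 1 and classed as low (drinker 8) or very heavy. They had 11 to 12 members at 0, against 1 to 10 in the other 24 animals, and 8 to 9 of the 21 members above at 0, against 0 to 6. The same held in part for all transcripts, of which 17.1% to 23.9% were at 0 in these 4 animals and 10.1% to 19.7% in the others, at totals of 14338548 to 24845484 counts. Values without these animals are given for the main comparisons of members, which was chosen after their values were seen.

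**Figure D2:**
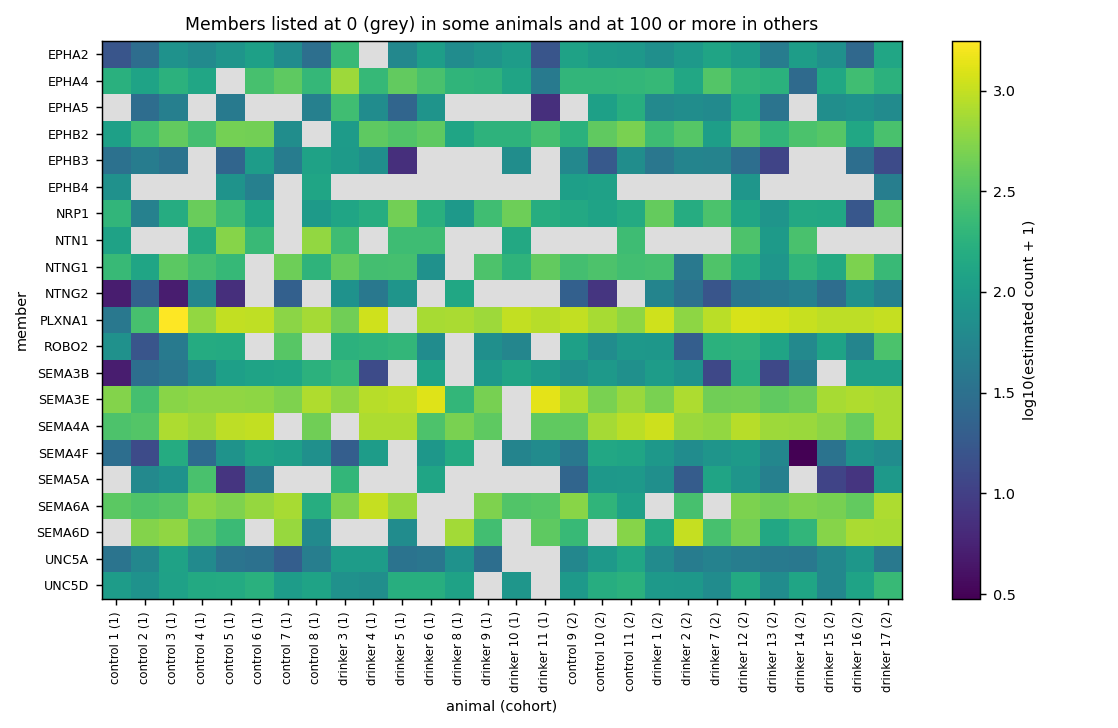
Estimated counts, as log10 of the count plus 1, of the 21 members (rows) listed at 0 in at least 1 animal (grey) and at 100 or more in another, in each of 28 animals (columns, with the cohort in brackets). Grey cells occur in every group, with 8 to 9 of the 21 grey in each of drinkers 8 to 11.

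Many of the results below turn on 2 plexins, PLXNB1 and PLXNB3, and on the semaphorin SEMA4D, whose promoters are shown to place them. Each sequence runs from 250 bases before the RefSeq gene start to 50 after it, 5′ to 3′ on the gene's strand in Mmul_10, with the GC box (GGGCGG or its reverse complement CCGCCC, bound by SP factors) in capitals. PLXNB1 lies on the minus strand (chr2:104480688-104480987), PLXNB3 on the plus strand (chrX:149747121-149747420) and SEMA4D on the minus strand (chr15:104543002-104543301).
PLXNB1: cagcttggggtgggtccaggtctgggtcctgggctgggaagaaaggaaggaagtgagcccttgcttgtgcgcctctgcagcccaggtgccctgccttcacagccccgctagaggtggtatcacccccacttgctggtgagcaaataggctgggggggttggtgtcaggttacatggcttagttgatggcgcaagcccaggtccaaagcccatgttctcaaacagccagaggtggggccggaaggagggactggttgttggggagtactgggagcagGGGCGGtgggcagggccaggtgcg
PLXNB3: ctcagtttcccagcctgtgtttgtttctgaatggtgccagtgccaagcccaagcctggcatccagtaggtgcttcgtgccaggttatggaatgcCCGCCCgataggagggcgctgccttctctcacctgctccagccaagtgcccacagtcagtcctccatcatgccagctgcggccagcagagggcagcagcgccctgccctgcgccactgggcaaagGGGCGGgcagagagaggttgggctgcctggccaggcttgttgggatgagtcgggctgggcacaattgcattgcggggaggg
SEMA4D: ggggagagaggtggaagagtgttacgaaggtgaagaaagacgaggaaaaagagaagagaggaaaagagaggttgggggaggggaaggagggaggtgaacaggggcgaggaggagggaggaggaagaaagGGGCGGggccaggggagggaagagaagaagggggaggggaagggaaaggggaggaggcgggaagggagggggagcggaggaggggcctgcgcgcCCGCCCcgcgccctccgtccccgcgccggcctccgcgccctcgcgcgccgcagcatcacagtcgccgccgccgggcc
PLXNB1 holds 1 GC box in this window, and PLXNB3 and SEMA4D hold 2 each. A GC box on either strand was found in 43 of the 62 member promoters (69.4%) and in 48.4% of 20744 promoters of the same length. The SOX motif ACAAAG, searched on both strands, was found in 5 member promoters (8.06%) against 14.7%, and TATAAA in 1 (1.61%) against 11.2%. The median GC content was 67.8% for members and 58.3% for all promoters, and the letters of a GC box follow GC content in part.

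In cohort 1, where 8 drinkers can be set against 8 controls, PLXNB1 and UNC5B, the most abundant members, had lower values in drinkers, but no member passed the adjusted threshold. By edgeR's quasi-likelihood test 0 of 62 members had an adjusted p under 0.05, against 0.0363% of all transcripts. At an unadjusted p under 0.05 there were 8 members, 7 lower and 1 higher in drinkers, a share of 12.9% against a background of 11.6%. DESeq2's Wald test called 2 members, PLXNB1 and PLXNB3, with a background of 4.77% of the 4905 transcripts it gave an adjusted p. The median log2 fold change was -0.14 over the 62 members and -0.00462 over all transcripts, and 38 members (61.3%) were lower in drinkers, against 50.6% of all transcripts. No member had drinkers and controls that did not overlap, against a background of 0.182%.

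PLXNB1 lay between 441 and 544 CPM in the cohort 1 controls (median 502) and between 311 and 484 in the drinkers (median 364). Of the 8 drinkers 6 lay below every control, and 5 of 8 controls lay above every drinker. The means were 496 ± 39.2 CPM (SD, n = 8) in controls and 379 ± 65.8 (n = 8) in drinkers. The log2 fold change was -0.38 (SE 0.0983, p = 0.00117, adjusted p = 0.171 by edgeR). With any 1 animal left out it lay between -0.45 and -0.35, with adjusted p between 0.131 and 0.295. Without drinkers 8 to 11 it was -0.32 with an adjusted p of 0.525.

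PLXNB3, a plexin best known from oligodendrocytes, ranged from 126 to 198 CPM in controls (median 162) and from 59.8 to 147 in drinkers (median 111). Here 7 of 8 drinkers lay below every control. The log2 fold change was -0.58 (SE 0.154, p = 0.00168, adjusted p = 0.195 by edgeR), and -0.39 without drinkers 8 to 11 (adjusted p = 0.534). PLXNB2, the remaining B plexin, had a median of 82.0 CPM in controls and 68.7 in drinkers, with 4 drinkers below every control and p above the unadjusted threshold. Of the 9 plexins 8 were lower in cohort 1 drinkers, with a family median of -0.28 on the log2 scale.

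Of the repulsive netrin receptors, UNC5B and UNC5C were above 0 in every animal and had lower values in drinkers. UNC5B ranged from 270.4 to 356 CPM in controls (median 294) and from 188 to 332 in drinkers (median 223), with 6 of 8 drinkers below every control (log2 fold change -0.31, SE 0.12, adjusted p = 0.304 by edgeR). UNC5C ranged from 4.42 to 13.2 CPM in controls (median 10.2) and from 4.18 to 9.58 in drinkers (median 6.18). Its lowest control, control 7, lay far from the other 7, all at 9.42 or more, and 6 controls lay above every drinker (log2 fold change -0.66, SE 0.229, adjusted p = 0.272). DCC had a median of 11.1 CPM in controls and 9.52 in drinkers, with drinkers spread from 2.68 to 23.8 and a fitted log2 fold change of 0.04 (SE 0.348, adjusted p = 1.0), and no test compared it with UNC5B or UNC5C.

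Among the ligands, 11 of 12 semaphorins of classes 4 to 7 were lower in cohort 1 drinkers, with a family median of -0.28 on the log2 scale, while 4 of 6 class 3 semaphorins were higher. SEMA4C, a transmembrane ligand of PLXNB2, ranged from 60.3 to 151 CPM in controls (median 108) and from 70.8 to 103 in drinkers (median 74.1), with the lowest value of all in a control (log2 fold change -0.36, SE 0.156, adjusted p = 0.361 by edgeR). SEMA6B ranged from 48.7 to 74.8 CPM in controls (median 53.8) and from 37.7 to 61.9 in drinkers (median 45.5), with 6 drinkers below every control (-0.27, SE 0.116, adjusted p = 0.366). SEMA3D was the 1 member higher in drinkers at an unadjusted p under 0.05, with a median of 3.73 CPM in controls and 4.48 in drinkers and 4 drinkers above every control (0.80, SE 0.368, adjusted p = 0.405). Of the slits 2 of 3 and of the ROBO receptors 1 of 4 were higher in drinkers. Among the 12 semaphorins of classes 4 to 7, SEMA4A, SEMA4F, SEMA5A, SEMA6A and SEMA6D were at 0 in some animals, as was PLXNA1 among the plexins.

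Without drinkers 8 to 11, which leaves 4 drinkers against 8 controls, 9 members had an unadjusted p under 0.05 by edgeR, 14.5% against 8.63% of all transcripts, and 0 an adjusted one. Of the 8 members found with all animals only PLXNB1, PLXNB3 and EPHB4 were among these 9. UNC5B had a log2 fold change of -0.22 (adjusted p = 0.622), UNC5C of -0.43 (adjusted p = 0.695) and SEMA4C of -0.29 (adjusted p = 0.736). SEMA6B was at -0.16 (adjusted p = 0.852), and SEMA3D stood at 0.73 (adjusted p = 0.712).

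**Figure D3:**
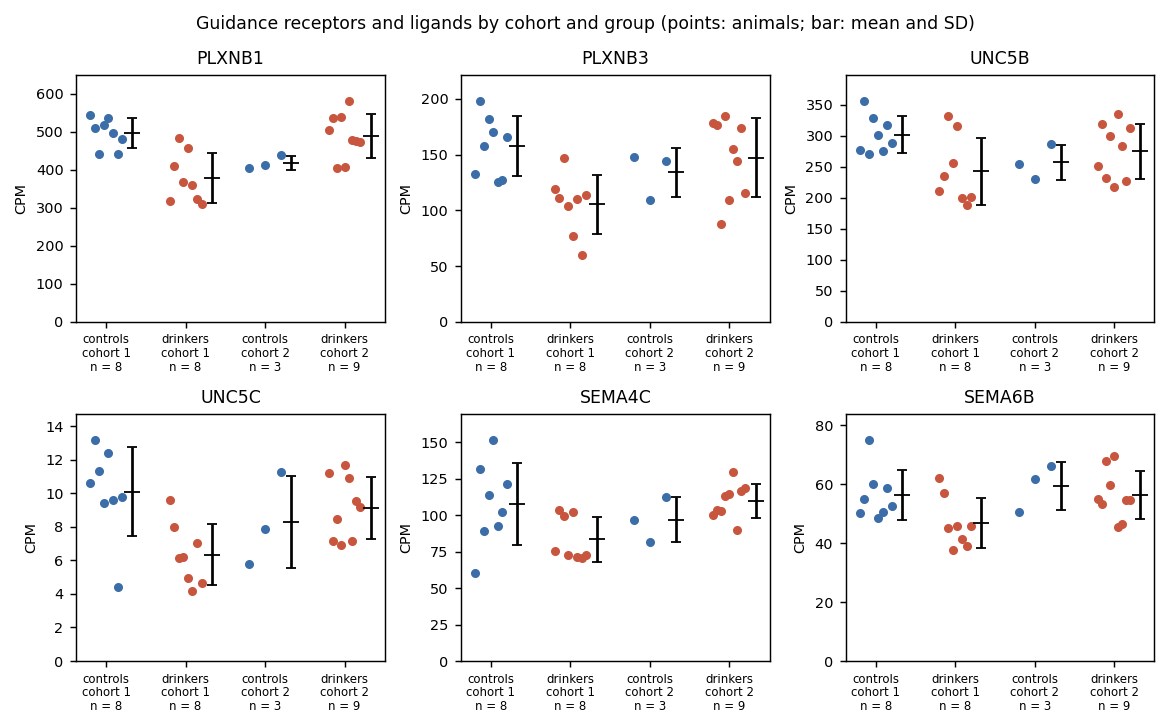
CPM of 4 receptors (PLXNB1, PLXNB3, UNC5B, UNC5C) and 2 ligands (SEMA4C, SEMA6B) in each animal, by cohort and group, with the mean and SD as black bars and axes starting at 0. In cohort 1 the mean of the drinkers is lower for all 6, and in cohort 2 it is higher for all but SEMA6B.

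Other measures of the cohort 1 libraries were set beside these values. The oligodendrocyte marker score, the mean standardized level of 9 markers, was -0.00679 ± 0.866 (SD, n = 8) in drinkers and 0.434 ± 1.16 in controls (exact permutation test, two-sided p = 0.407). With this score as a covariate, which was added after the data were seen, PLXNB1 had a log2 fold change of -0.33 (p = 0.000579, adjusted p = 0.178 by edgeR) and PLXNB3 one of -0.57 (adjusted p = 0.269). The astrocyte score was -0.337 ± 1.06 in drinkers and -0.332 ± 0.941 in controls (exact permutation test, p = 0.993). The endothelial score, not tested here, was -0.517 ± 1.3 in drinkers and -0.0662 ± 0.998 in controls. The mitochondrial share was 49.0% in drinkers and 48.4% in controls (exact permutation test, p = 0.895). The members together took 0.178% ± 0.0288 of counts in drinkers and 0.214% ± 0.0451 in controls (exact permutation test, p = 0.0758). Neuron markers were read as summed levels. The summed level of 4 pan-neuronal markers had a median of 7450 CPM in drinkers, with a range of 3530 to 18000, and of 3880 in controls, with a range of 2440 to 9010. That of 3 GABA neuron markers had medians of 290 and 242 CPM, and that of 2 glutamate neuron markers 156 and 104. The 13 dopamine neuron markers went the other way, at medians of 298 CPM in drinkers (49.9 to 1770) and 389 in controls (47.9 to 1960). The part of these markers in the values of PLXNB1 was not tested.

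In cohort 2 the values of PLXNB1 were higher in drinkers and those of PLXNB3 lay on both sides of the controls. Of 62 members 0 were called by edgeR at an adjusted p under 0.05, with a background of 0%, and 3 had an unadjusted p under 0.05, a share of 4.84% against 3.97%. PLXNB1 was at 404, 412 and 438 CPM in the 3 controls and between 404 and 581 in the 9 drinkers (median 479), with 7 drinkers above every control. Its log2 fold change was 0.23 (SE 0.107, p = 0.0495, adjusted p = 1.0 by edgeR), and with 1 control left out it lay between 0.21 and 0.26 with an unadjusted p of 0.0737 to 0.14.

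PLXNB3 was at 109, 145 and 148 CPM in the cohort 2 controls and between 87.4 and 185 in the drinkers, of which 5 lay above and 2 below every control. UNC5A, a netrin receptor of low level, was at 2.67, 4.10 and 5.36 CPM in the controls and between 1.56 and 3.95 in the drinkers (log2 fold change -0.76, SE 0.323, adjusted p = 1.0 by edgeR). NTNG2, a netrin-G that binds a synaptic partner and not DCC, was at 0, 0.305 and 0.937 CPM in the controls and between 0.672 and 3.36 in the drinkers, close to the floor of detection (adjusted p = 1.0). With control 10 left out, no member had an unadjusted p under 0.05.

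Markers of other cells also stood at other levels in cohort 2. The pan-neuronal markers summed to a median of 3900 CPM in drinkers (2670 to 4770) and 7630 in controls (3650 to 8840), the opposite order to cohort 1. The GABA neuron markers ranged from 144 to 259 CPM in drinkers and from 168 to 273 in controls. Dopamine neuron markers had medians of 187 CPM in drinkers and 278 in controls, and glutamate neuron markers 122 and 139. The astrocyte score was 0.647 ± 0.948 (SD, n = 9) in drinkers and -0.157 ± 0.301 (n = 3) in controls. The oligodendrocyte score was -0.162 ± 0.957 in drinkers and -0.653 ± 0.988 in controls, so the drinkers had the higher mean here and the lower one in cohort 1, as PLXNB1 did. The part of the neuron and astrocyte markers in the contrast of PLXNB1 between cohorts was not tested.

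The difference between the cohorts' drinking effects was tested as an interaction. No member passed the adjusted threshold (background 0.0145%), 6 had an unadjusted p under 0.05, a share of 9.68% against 9.62%, and DESeq2 called 1, PLXNB1 (adjusted p = 0.0124), with a background of 3.56%. For PLXNB1 the effect in cohort 2 minus that in cohort 1 was 0.61 on the log2 scale (SE 0.152, p = 0.000422, adjusted p = 0.196 by edgeR), 0.51 with the oligodendrocyte score as a further covariate (adjusted p = 0.222), and 0.55 without drinkers 8 to 11 (adjusted p = 0.264). PLXNB3 (0.72), SEMA4C (0.55), UNC5C (0.80), UNC5B (0.41) and SEMA4B (0.52) were the other 5, all with adjusted p of 0.361 or more. Without drinkers 8 to 11 there were 7 members at an unadjusted p under 0.05, 11.3% against 10.3% of all transcripts, of which only PLXNB1 and SEMA4B were among the 6. Over the 36 members above 0 in every animal, 25 were lower in drinkers in cohort 1 and 16 in cohort 2, and 16 were lower in cohort 1 and higher in cohort 2. Of all transcripts 50.6% were lower in drinkers in cohort 1 and 47% in cohort 2. The joint count was made for these 36 members alone, so no background stands beside it. The cohorts share no animal.

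**Figure D4:**
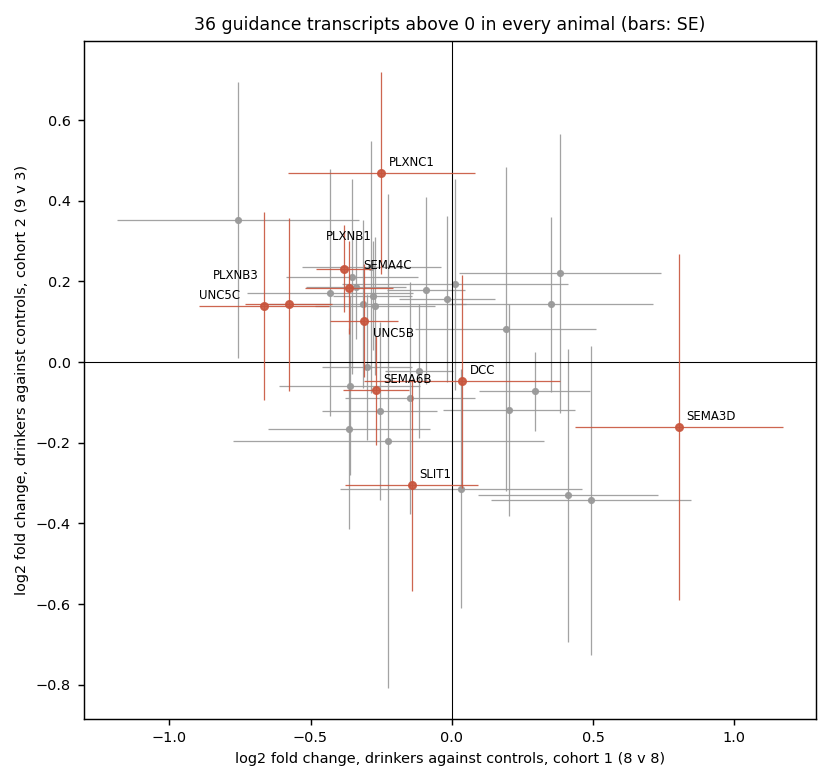
Log2 fold change of drinkers against controls in cohort 1 (horizontal axis, 8 against 8) and in cohort 2 (vertical axis, 9 against 3) for the 36 members above 0 in every animal, with SE bars; members discussed in the text are red and named. PLXNB1, PLXNB3, UNC5B, UNC5C and SEMA4C lie in the upper left, where values are below 0 in cohort 1 and above 0 in cohort 2.

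Over all 28 animals no member passed the adjusted threshold between drinkers and controls. The count of members with an adjusted p under 0.05 was 0 by edgeR and by limma-voom, each with a background of 0%, and 0 by DESeq2, with a background of 0.08%, and 1 member, EPHB4, had an unadjusted p under 0.05 by edgeR, a share of 1.61% against 4.57%. EPHB4 was above 0 in 2 of 17 drinkers and 6 of 11 controls. NTNG2 came next (p = 0.0769 by edgeR, adjusted p = 1.0) and was at 0 in 4 drinkers and 3 controls. UNC5C (log2 fold change -0.30, SE 0.171), PLXNB3 (-0.24, SE 0.141), UNC5B (-0.16, SE 0.0931), SEMA6B (-0.14, SE 0.0915), PLXNA4 (-0.22, SE 0.143) and SEMA3D (0.43, SE 0.279) followed, each with an adjusted p of 1.0. The dopamine axon receptors DCC (-0.01, SE 0.224) and ROBO1 (0.15, SE 0.243) had values within 1 SE of 0. This fit has no term for cohort. With cohort as a covariate 0 members were called and 4 had an unadjusted p under 0.05 by edgeR (6.45% against 7.06%), namely EPHB4, PLXNB3 (-0.34, adjusted p = 0.635), SEMA6B (-0.20, adjusted p = 0.643) and UNC5C (-0.40, adjusted p = 0.67). In the fit with no term for cohort and without drinkers 8 to 11, NTNG2 alone had an unadjusted p under 0.05 (p = 0.0365, adjusted p = 1.0 by edgeR). This is a share of 1.61% against 3.91%.

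Between the cohorts, with group in the model, 0 members were called by edgeR (background 0.0436%) and 9 had an unadjusted p under 0.05, a share of 14.5% against 9.8%. PLXNB2 had a median of 73.8 CPM in the 16 animals of cohort 1 and 94.3 in the 12 of cohort 2 (log2 difference 0.33, SE 0.109, adjusted p = 0.217). EPHA10, an Eph receptor without kinase activity, had medians of 12.0 and 14.6 CPM (0.35, SE 0.115, adjusted p = 0.218). SEMA7A went the other way, with medians of 115 and 102 CPM (-0.31, SE 0.127, adjusted p = 0.381). Without drinkers 8 to 11 there were 3 members at an unadjusted p under 0.05 (4.84% against 7.12%), EFNA1, EPHA10 and SEMA7A, and PLXNB2 stood at 0.22 (adjusted p = 0.706). Of 9 plexins 8 were higher in cohort 2, and what else differed between the cohorts was not tested.

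Very heavy drinkers (n = 9) were compared with heavy drinkers (n = 5) with cohort in the model. No member was called by edgeR (background 0%), and 6 had an unadjusted p under 0.05, all lower in very heavy drinkers, a share of 9.68% against 5.14%. DESeq2 called 3, NTNG2, SEMA5A and EPHA5, with a background of 0.823%; all 3 are among the members at 0 in some animals. NTNG2 was at 0 in 1 of 5 heavy and 3 of 9 very heavy drinkers, with medians of 1.52 CPM in both, and EPHA5 in 0 of 5 and 3 of 9, with medians of 2.78 and 1.88 CPM. Drinkers 9 to 11 are the 3 very heavy drinkers of cohort 1, and only 1 heavy drinker, drinker 7, belongs to cohort 2. With cohort in the model, leaving out drinkers 9 to 11 sets drinker 7 alone against the 6 very heavy drinkers of cohort 2. In that fit the log2 values of NTNG2 and EPHA5 turned to 1.69 and 0.0934, with PLXNB3 at 0.75 and PLXNA2 at -0.72. These values rest on 1 heavy drinker. Leaving out drinker 7 instead sets the 4 heavy drinkers of cohort 1 against drinkers 9 to 11, which have many members at 0. There 13 members had an unadjusted p under 0.05, 21% against 8.3% of all transcripts.

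PLXNA4, a receptor for class 6 and class 3 semaphorins, was at 19.1, 22.6, 25.6, 27.1 and 29.1 CPM in the 5 heavy drinkers and between 10.5 and 26.7 in the 9 very heavy drinkers (median 17.5). The log2 difference was -0.69 (SE 0.222, p = 0.00817, adjusted p = 0.94 by edgeR). It was -0.38 without drinkers 9 to 11, where drinker 7 is the only heavy drinker compared. DCC was at 8.52, 11.6, 11.6, 18.1 and 23.8 CPM in heavy drinkers and between 2.68 and 14.8 in very heavy drinkers (median 9.73), with the groups overlapping (-0.87, SE 0.389, adjusted p = 0.94). EPHA4, an Eph receptor that binds ephrins of both classes, was at 8.65, 12.2, 14.2, 17.4 and 28.1 CPM in heavy drinkers and between 1.28 and 11.6 in very heavy drinkers (median 7.27), and here 4 of 5 heavy drinkers lay above every very heavy drinker (-1.20, SE 0.53, adjusted p = 0.94).

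The members were then related to cell type marker scores across the 28 animals, with cohort in the model; no member is itself a marker. A slope is the log2 change for 1 SD of the score. On the oligodendrocyte score 1 of 62 members was called by edgeR, a share to set against 1.56% of all transcripts, and 14 had an unadjusted p under 0.05, 22.6% against 12.8%. SEMA4D, a semaphorin made by oligodendrocytes, had a median of 48.9 CPM and a range of 29.5 to 97.7, with the highest value in drinker 8, which also had the highest score. Its slope was 0.25 (SE 0.0538, adjusted p = 0.0178 by edgeR). On simulated slopes this test called more unchanged transcripts than its threshold states, which bears on each slope called here. Leaving out 1 animal at a time kept the adjusted p under 0.05 in 27 of 28 fits, and it was 0.0528 without drinker 8, at a slope of 0.20. The slope without drinkers 8 to 11 was 0.17 (adjusted p = 0.074), and 18 members then had an unadjusted p under 0.05, 29% against 12.7%.

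SLIT1, a secreted repellent made by neurons, had a negative slope on the score that missed the threshold in the fit to all animals. It ranged from 17.3 to 78.1 CPM (median 40.3), with the highest value in control 3, which had the lowest oligodendrocyte score and the highest dopamine neuron score. The slope was -0.27 (SE 0.0718, adjusted p = 0.0521 by edgeR), and it passed the threshold in 6 of 28 fits with 1 animal left out. With all animals it passed with the first principal component of the markers as the score (-0.35, adjusted p = 0.00235) and with group as a further covariate (adjusted p = 0.0458), and it also passed without drinkers 8 to 11 (adjusted p = 0.0468). SEMA4C (0.17, adjusted p = 0.065), PLXNB1 (0.14, adjusted p = 0.0754) and UNC5B (0.13, adjusted p = 0.117) had positive slopes. EPHA7 and EPHA10, Eph receptors of neurons, had slopes of -0.31 and -0.14 (adjusted p = 0.195 and 0.196).

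On the endothelial score 1 member was called (background 0.305%) and 7 had an unadjusted p under 0.05, 11.3% against 9.34%. EFNB3, a transmembrane ephrin of neurons, ranged from 19.1 to 72.0 CPM (median 41.1) with a slope of -0.30 (SE 0.0694, adjusted p = 0.0495 by edgeR). The call was held in 7 of 28 fits with 1 animal left out, with adjusted p from 0.0244 to 0.127, and was lost without cohort in the model (adjusted p = 0.152) and without drinkers 8 to 11 (adjusted p = 0.183). ROBO4 had a slope of 0.18 (SE 0.054, adjusted p = 0.178 by edgeR), and 0.35 without drinkers 8 to 11 (adjusted p = 0.0107). It was the 1 member called in that fit (background 0.436%), where 6 had an unadjusted p under 0.05, 9.68% against 10.9%. Drinker 11 has the lowest endothelial score, -3.26.

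On the dopamine neuron score 0 members were called (background 0.668%) and 3 had an unadjusted p under 0.05, 4.84% against 7.27%. SLIT1 (slope 0.26, SE 0.0741, adjusted p = 0.133 by edgeR) and the semaphorin receptor PLXNC1 (0.30, SE 0.0945, adjusted p = 0.206) were higher where dopamine neuron markers were higher, and EPHB6 was lower (-0.23, SE 0.0961, adjusted p = 0.511). On the astrocyte score 0 were called (background 2.53%) and 11 had an unadjusted p under 0.05, 17.7% against 14.6%, with PLXNB1 (0.14, adjusted p = 0.0885) and PLXND1 (0.27, adjusted p = 0.0965) first. On the microglia score 0 were called (background 0.356%) and 5 had an unadjusted p under 0.05, 8.06% against 6.62%. SEMA3C, a secreted semaphorin that ranged from 6.14 to 46.3 CPM, had a slope of -0.42 on that score (SE 0.102, adjusted p = 0.0674 by edgeR and 0.0492 by limma-voom). Drinker 16, with the lowest microglia score (-3.26), had 38.8 CPM of SEMA3C, and no fit left out this animal alone. SEMA5B came next, with a slope of 0.27 (SE 0.0811, adjusted p = 0.26 by edgeR). With drinkers 8 to 11 left out, no member was called on these 3 scores, and at an unadjusted p under 0.05 there were 5 on the dopamine neuron score (8.06% against 8.34%), 9 on the astrocyte score (14.5% against 14.6%) and 7 on the microglia score (11.3% against 7.42%), where SEMA3C had a slope of -0.39 (adjusted p = 0.215).

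**Figure D5:**
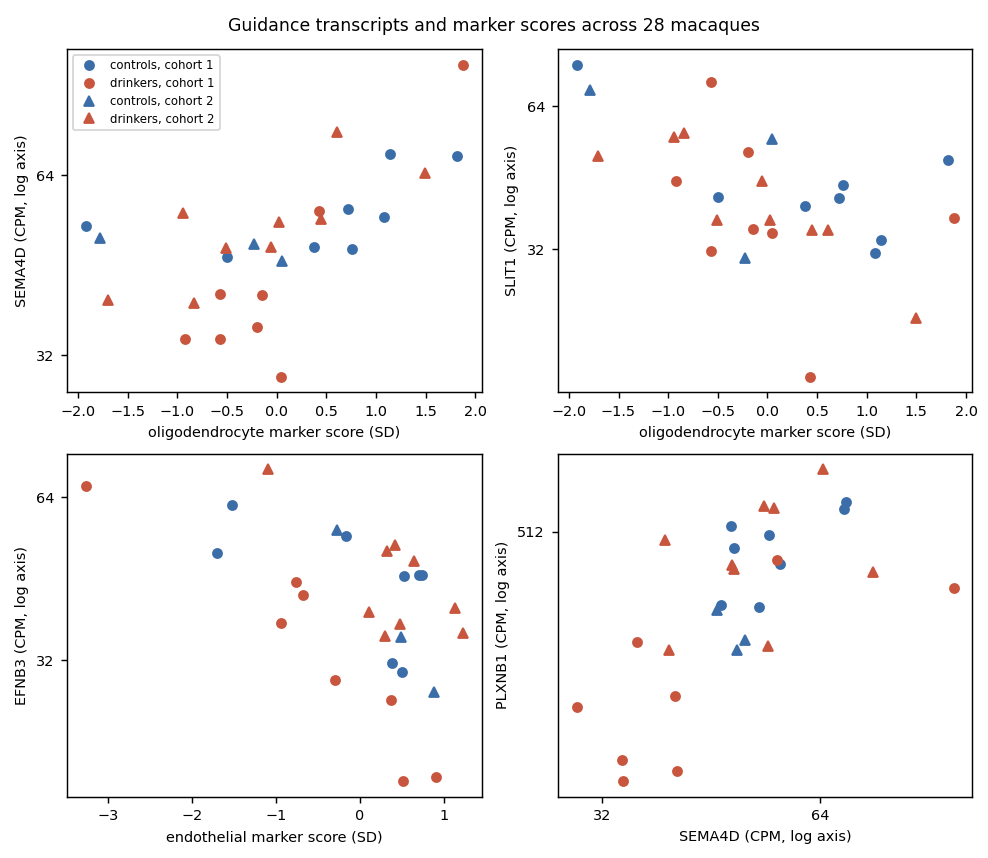
SEMA4D and SLIT1 against the oligodendrocyte marker score, EFNB3 against the endothelial marker score, and PLXNB1 against SEMA4D, in 28 animals; levels are CPM on log axes, scores are in SD units, colour marks the group and shape the cohort. SEMA4D is higher and SLIT1 lower at higher oligodendrocyte scores, and drinker 8 is the uppermost SEMA4D point.

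Ligands were also paired with their receptors. Of 24 known pairs 19 had both members past the filter, and p-values were adjusted over these 19. In 15 of them a member was at 0 in some animals and at 100 counts or more in others, so no pooled correlation is given for those. SEMA4D and PLXNB1 correlated across the 28 animals on the log2 CPM scale (Pearson r = 0.651, permutation p = 0.00015, adjusted p = 0.00285; Spearman rho = 0.644, permutation p = 0.00037). Without the 2 animals farthest from the median of SEMA4D r was 0.722. Within cohort 1 r was 0.729 (n = 16, permutation p = 0.00105) and within cohort 2 0.367 (n = 12, permutation p = 0.241), and no test compared the cohorts.

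SEMA7A and its receptor PLXNC1 were inversely related (r = -0.622, permutation p = 0.00036, adjusted p = 0.00342; rho = -0.656, permutation p = 0.00022). Without the 2 animals farthest from the median of SEMA7A, r was -0.399 (permutation p = 0.0426, adjusted p = 0.405), so the relation rests in part on those animals. Within cohort 1 r was -0.629 and within cohort 2 -0.491. Leaving out drinkers 8 to 11, r was -0.597 for this pair and 0.606 for SEMA4D and PLXNB1 (permutation test, adjusted p = 0.021 for each). The other pairs of this kind, SLIT2 with ROBO1 (r = 0.223, rho = 0.0761, permutation p = 0.252 and 0.701) and SLIT3 with ROBO1 (r = 0.351, rho = 0.301, permutation p = 0.0661 and 0.12), did not pass. The pairs share libraries and the mix of cells in each punch.

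The rest of the pathway was described by 2 lists. Of 18 co-receptors and cofactors 0 were called in cohort 1, with 7 higher and 11 lower in drinkers and a median log2 fold change of -0.06. DSCAML1, a cell adhesion molecule of the DSCAM family, was the only one of them at an unadjusted p under 0.05 (-0.39, SE 0.106, adjusted p = 0.201 by edgeR). Of 40 intracellular effectors past the filter 0 were called in cohort 1 or over 28 animals. At an unadjusted p under 0.05 there were 2 of 40 in cohort 1, 4 of 40 in cohort 2 and 2 of 40 over 28 animals, against 11.6%, 3.97% and 4.57% of all transcripts. The GTPase CDC42, through which several guidance receptors act on actin, had a value of 0.81 in cohort 1 (SE 0.284, adjusted p = 0.276 by edgeR). In cohort 2 DPYSL5, a collapsin response mediator, was at 0.42 (SE 0.135, adjusted p = 1.0). The others of the 4 in cohort 2, ARHGEF11 (-4.68), VAV2 (-0.97) and VAV3 (-1.28), were lower in drinkers.

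The biological coefficient of variation between animals had a median of 0.318 over the 36 members above 0 in every animal, and of 0.248 over the 8329 transcripts above 0 in every animal.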

How the data were processed

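The authors sequenced RNA from VTA punches of 28 macaques, trimmed reads with Trim Galore 0.6.7, quantified them with Salmon 1.9.0 against Mmul_10 and deposited estimated counts without normalization, 1 column per animal. Each of 16885 symbols is listed with 1 Ensembl transcript; how it was chosen is not given in the sources used here. The 1 entry without a symbol held 1.16e-05% of counts and was left out. Groups came from the labels and cohorts from the study's source data, whose other values were not used.

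Counts were rounded, the 13769 transcripts that reached 5 counts in 3 or more animals kept, and all of them fitted with edgeR 4.0.16 (TMM, quasi-likelihood test, Benjamini-Hochberg at 0.05). DESeq2 1.42.0 and limma 3.58.1 were alternatives, run in R 4.3.3. Correlations used log2 CPM with a prior count of 2 and 100000 permutations (Python 3.11.15, numpy 2.4.6, scipy 1.17.1), two-sided. Depth per animal is given with the results and limits low transcripts. The test was tried on simulated data, where over 28 animals and for slopes it called more unchanged transcripts than its threshold states.

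RefSeq models on Mmul_10 gave the gene lengths and promoters. The named genes are the 8 members with the lowest p over 28 animals, the 5 lowest in each other comparison and score, the most abundant, those at 0 in some animals and at 100 or more in others, and a list of canonical guidance genes; further members at an unadjusted p under 0.05 were named after their values were seen. Members, lists and pairs were chosen with earlier results of these data known. Alternatives were other tests, size factors and filters, covariates, another score and leaving out animals.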

Additional observations from a re-analysis of the deposited data

Results flagged for a closer look

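In 12 cases a sample lay far from the rest of its group by Dixon's test, among 88 groups of values examined, where chance flags about 1 in 20. Among members, UNC5C in control 7 was at 4.42 CPM against 9.42 to 13.2 in the other cohort 1 controls, SEMA6B in control 3 at 74.8 against 48.7 to 60.1, PLXNA4 in control 5 at 39 against 19.2 to 26.7, and SLIT1 in control 3 at 78.1 against 31.4 to 49.3. Among cohort 1 drinkers SEMA4D in drinker 8 was at 97.7 CPM against 29.5 to 55.8, and EPHA8 in drinker 3 at 8.81 against 0.415 to 3.68. Among cohort 2 drinkers EFNB3 in drinker 13 was at 72 CPM against 35.5 to 52.3. The same animal had an astrocyte score of -1.48 against 0.112 to 1.61, an endothelial score of -1.09 against 0.116 to 1.23, and a total of 16421206 counts against 20937826 to 24746666. The microglia score of drinker 16 was -3.26 against -0.438 to 1.24, and the endothelial score of drinker 11 was -3.26 against -0.934 to 0.91.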

How the results depend on the processing

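Of 755 refits of named members 705 kept their direction and side of the threshold, 25 lost the call, 23 gained it and 2 changed direction: NTNG2 (1.69) and EPHA5 (0.0934), very heavy against heavy drinkers, without drinkers 9 to 11; each was at 0 in 3 of the 9 very heavy drinkers. By DESeq2 the members called were 2 in cohort 1, 1 for the interaction and 3 for very heavy against heavy drinkers, against 0 by edgeR. On the oligodendrocyte score there were 2 with the first principal component (2.94% of all transcripts) and 2 with group as a further covariate (1.63%). On the astrocyte score there were 2 with group as a further covariate (2.8%), on the microglia score 1 with the first principal component (0.443%) and 1 by limma-voom (0.269%), and on the endothelial score 0 without cohort (0.225%). With 1 animal left out the count ranged from 0 to 3 on the oligodendrocyte score and from 0 to 1 on the endothelial score, and was 0 in cohort 1 with each of its 16 animals left out, in cohort 2 with each of the 3 controls left out and between very heavy and heavy drinkers with each of the 5 heavy drinkers left out. The pairs past the threshold were 2 of 19, and 1 in cohort 1 alone, 0 in cohort 2 alone and 1 without the 2 animals farthest from the ligand's median. The causes were not tested, but the cohorts alone hold fewer animals. No paired analysis was possible because the labels carry no shared replicate numbers and do not say to which drinker a control was yoked. Cohort 2 has 3 controls, and members with few counts allow no statement on small differences.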
